A study of Mus musculus with 11 samples.

Results

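The genes described here encode the machinery that licenses DNA for replication, measured in fluorescent adrenal cells of fetal mice with and without Star, the steroidogenic acute regulatory protein that delivers cholesterol to the mitochondrial enzyme starting steroid synthesis. The group was set by name as Mcm2, Mcm3, Mcm4, Mcm5, Mcm6, Mcm7, Cdc6, Cdt1, Pcna and Gins1, and its members were found as every array probe whose RefSeq accession belongs to one of these genes. The probes covered 9 of the 10 genes, out of 17427 genes named on the array, with 10 of its 41174 probes. Cdc6 had 2 probes and the other genes 1 each. No probe was matched to Gins1, a subunit of the replicative helicase, so no value is given for it.

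The wild-type group, Star+/+, held 7 arrays and the knockout group, Star-/-, held 4 arrays, each with amplified RNA of a separate embryo taken at E17.5 or E18.5. In both groups the cells carried enhanced green fluorescent protein and were isolated by fluorescence-activated sorting of dissociated adrenal glands. The labels used here do not say which promoter drives the reporter. All 4 knockout embryos were labelled male, while 3 wild-type embryos were labelled male and 4 female. From each embryo 1 ng of total RNA was amplified linearly before labelling, which can distort levels. The arrays came from 3 slides. Wild-type arrays 1 and 2 shared slide 1 with knockout arrays 1 and 2, wild-type array 3 shared slide 2 with knockout arrays 3 and 4, and wild-type arrays 4 to 7 made up slide 3. Every fitted difference between genotypes was therefore set by slides 1 and 2, with slide 3 adding only to the estimate of the spread. Since array 3 was the only wild-type array of slide 2, a fit without it leaves no contrast on that slide. Differences and list medians given without wild-type array 3 are thus those of slide 1 by design, and no separate check.

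Some features of the whole series touch the results. The number of probes well above background ran from 19066 to 26408 per array. Wild-type array 3 stood apart: its 75th percentile of signal, 115, was the lowest, and so was its median correlation with the remaining arrays, 0.877. The Star probe read between 3.21 and 7.86 on the wild-type arrays (median 5.87) and 1.58, 2.59, 2.05 and 3.27 on knockout arrays 1 to 4, in log2 signal relative to the array's 75th percentile, so the groups overlapped slightly. Its fitted difference was −4.70 ± 0.93 (SE), at a limma adjusted p of 0.0559. Since the deleted exons and the place of the probe are unknown here, this checks the genotype labels only in part. The labelled cell type was checked against its markers: of the 8 on the array, Star, Nr5a1, Cyp11a1, Hsd3b1, Scarb1 and Mc2r were well above background on all 11 arrays, Fdx1 on 10 and Cyp21a1 on 6. On knockout array 4 the spot of Fdx1 was dropped as an outlier and so not counted, though it read 7.39. Detection does not measure purity, and the summed level of these markers differed widely between wild-type arrays, as given with the other cell type markers below.

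Before S phase, the origin recognition complex and the loaders CDC6 and CDT1 place the MCM2-7 ring, a hexamer of the Mcm2 to Mcm7 products, on DNA at each future origin. The ring is inactive until kinases and the CDC45 and GINS proteins turn it into the running helicase, and CDT1 is then destroyed or bound by geminin so that no origin fires again in the same cycle. PCNA, the sliding clamp, holds the polymerases on the template behind the helicase. Most of these genes are known targets of E2F transcription factors and are transcribed as cells enter the cycle, so their summed transcript in a tissue depends in part on how many of its cells are cycling. In bulk RNA such as this, fewer cells of a type and less RNA per cell cannot be told apart.

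Because the licensing genes are textbook E2F targets, their promoters are shown before the values. RefSeq windows of the build GRCm38.p6, from 250 bases before to 50 bases after a start site, were found for 8 of the 9 measured genes, in 9 windows since Mcm7 had 2. Mcm4 had no window. The 250 bases before the start site are printed for 4 genes, 5′ to 3′ on the strand of the gene: Mcm6 and Mcm2, which had the largest fitted differences of the genes with a window, Cdc6, whose levels were separated more narrowly, and Mcm5, whose levels overlapped between the groups. Mcm6 lies on the minus strand (chr1:128359706-128359955), Mcm2 on the minus strand (chr6:88898781-88899030), Cdc6 on the plus strand (chr11:98907901-98908150) and Mcm5 on the plus strand (chr8:75109259-75109508). Capitals mark the E2F words that were searched, TTTCCCGC, TTTCGCGC, TTTGCCGC and TTTGGCGC, on either strand.
Mcm6: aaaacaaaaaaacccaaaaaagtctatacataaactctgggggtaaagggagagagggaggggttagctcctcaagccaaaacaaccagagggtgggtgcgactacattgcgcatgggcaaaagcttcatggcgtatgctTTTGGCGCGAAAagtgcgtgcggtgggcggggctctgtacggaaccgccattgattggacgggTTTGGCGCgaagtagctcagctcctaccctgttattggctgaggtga
Mcm2: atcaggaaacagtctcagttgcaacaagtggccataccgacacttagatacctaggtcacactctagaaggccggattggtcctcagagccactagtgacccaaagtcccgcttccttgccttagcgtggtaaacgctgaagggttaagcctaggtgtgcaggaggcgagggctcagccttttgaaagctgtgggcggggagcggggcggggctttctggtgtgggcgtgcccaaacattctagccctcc
Cdc6: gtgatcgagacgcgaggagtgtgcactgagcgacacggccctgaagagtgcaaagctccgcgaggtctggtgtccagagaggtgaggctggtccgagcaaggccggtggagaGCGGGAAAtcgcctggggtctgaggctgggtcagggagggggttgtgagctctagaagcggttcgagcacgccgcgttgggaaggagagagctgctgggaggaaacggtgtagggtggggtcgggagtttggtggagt
Mcm5: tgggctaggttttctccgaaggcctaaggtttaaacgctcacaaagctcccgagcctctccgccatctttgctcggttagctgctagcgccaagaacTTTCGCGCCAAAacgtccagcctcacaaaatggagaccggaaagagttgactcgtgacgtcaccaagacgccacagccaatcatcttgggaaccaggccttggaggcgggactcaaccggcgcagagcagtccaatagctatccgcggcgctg

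Mcm6 held E2F words at −110, −106 and −47 from the start site, of which the first pair lie on opposite strands, TTTGGCGC and TTTCGCGC, and overlap. Mcm5 held such an overlapping pair at −153 and −149, Cdc6 held a single word at −138, and Mcm2 held none. An E2F word was present in the windows of 6 of the 8 genes, namely Mcm3, Mcm5, Mcm6, Mcm7, Cdc6 and Cdt1, against 2.26% of all 32851 windows of the same length and 2.6% of the 27025 genes with a window. The words of Mcm3 and Cdt1 and 1 of the 2 words of Mcm7 lay after the start site and so outside the stretch of the kind printed. The words CCAAT, searched on both strands, occurred in 6 of the 8 genes and in 41.1% of all genes, and the CHR word TTTGAA in 1 of the 8, Mcm2, and in 20.2% of all genes. Sorted by the array levels described below, 3 of 4 genes with a window whose groups did not overlap held an E2F word, and so did 3 of 4 whose groups overlapped. A match is a description of these letters only.

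**Figure D1:**
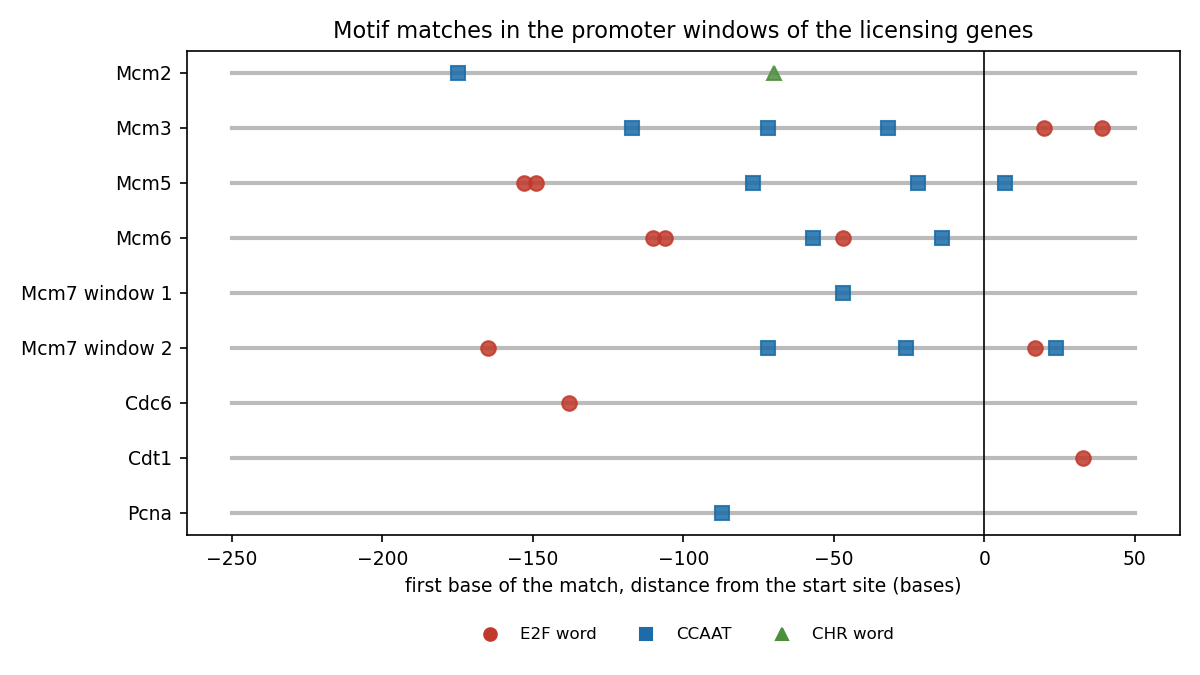
Positions of the E2F, CCAAT and CHR words in the 9 promoter windows of 8 licensing genes. The horizontal axis gives the first base of each match in bases from the start site, and each grey line is a window from 250 bases before to 50 bases after it. The E2F words of Mcm3 and Cdt1 lie after the start site, and Mcm2 and Pcna have none.

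Levels below are log2 processed signals minus the 75th percentile of the array, so 0 is the 75th percentile and 1 unit is a 2-fold difference. Each level belongs to its own probe, and probes of different genes are not ranked against each other. All probes of the group were well above background on every array, apart from the Mcm3 probe and the second Cdc6 probe on wild-type array 3. Differences are knockout minus wild-type from limma with slide as a block, and p-values were adjusted by the Benjamini-Hochberg method over 20739 genes and unnamed probes, with a threshold of 0.05.

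None of the 9 licensing genes passed that threshold, where 0.834% of all genes tested did (173, of which 48 or 0.231% were lower and 125 or 0.603% higher in the knockout). Mcm6, Mcm2 and Mcm4, which encode subunits of the helicase ring, had an unadjusted p under 0.05, and all 3 were lower in the knockout arrays. That is 3 of 9, where 10.1% of all genes tested were lower and 8.39% higher at this level. The fitted difference was below 0 for 9 of 9 genes, against 57% of all genes tested. The median over the 9 was −0.71, against −0.16 over all genes tested.

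Without regard to slide, the levels of the 4 knockout arrays lay below those of all 7 wild-type arrays for 5 of 9 genes, Mcm2, Mcm4, Mcm6, Mcm7 and Cdc6, where this held for 3.22% of all genes tested. On slides 1 and 2 alone it held for the same 5 genes, where 11.4% of all genes tested did so. For Mcm7 and Cdc6 the separation was narrow, as their values show below. That of Cdc6 held for its brighter probe only and was lost when the probes of a gene were averaged, where 2.71% of all genes tested were separated. Under quantile normalization, median scaling and cyclic loess only Mcm2, Mcm4 and Mcm6 remained separated, where 3.34%, 5.59% and 3.2% of all genes tested did so, and under the normexp background correction only Mcm6, where 1.8% did.

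**Figure D2:**
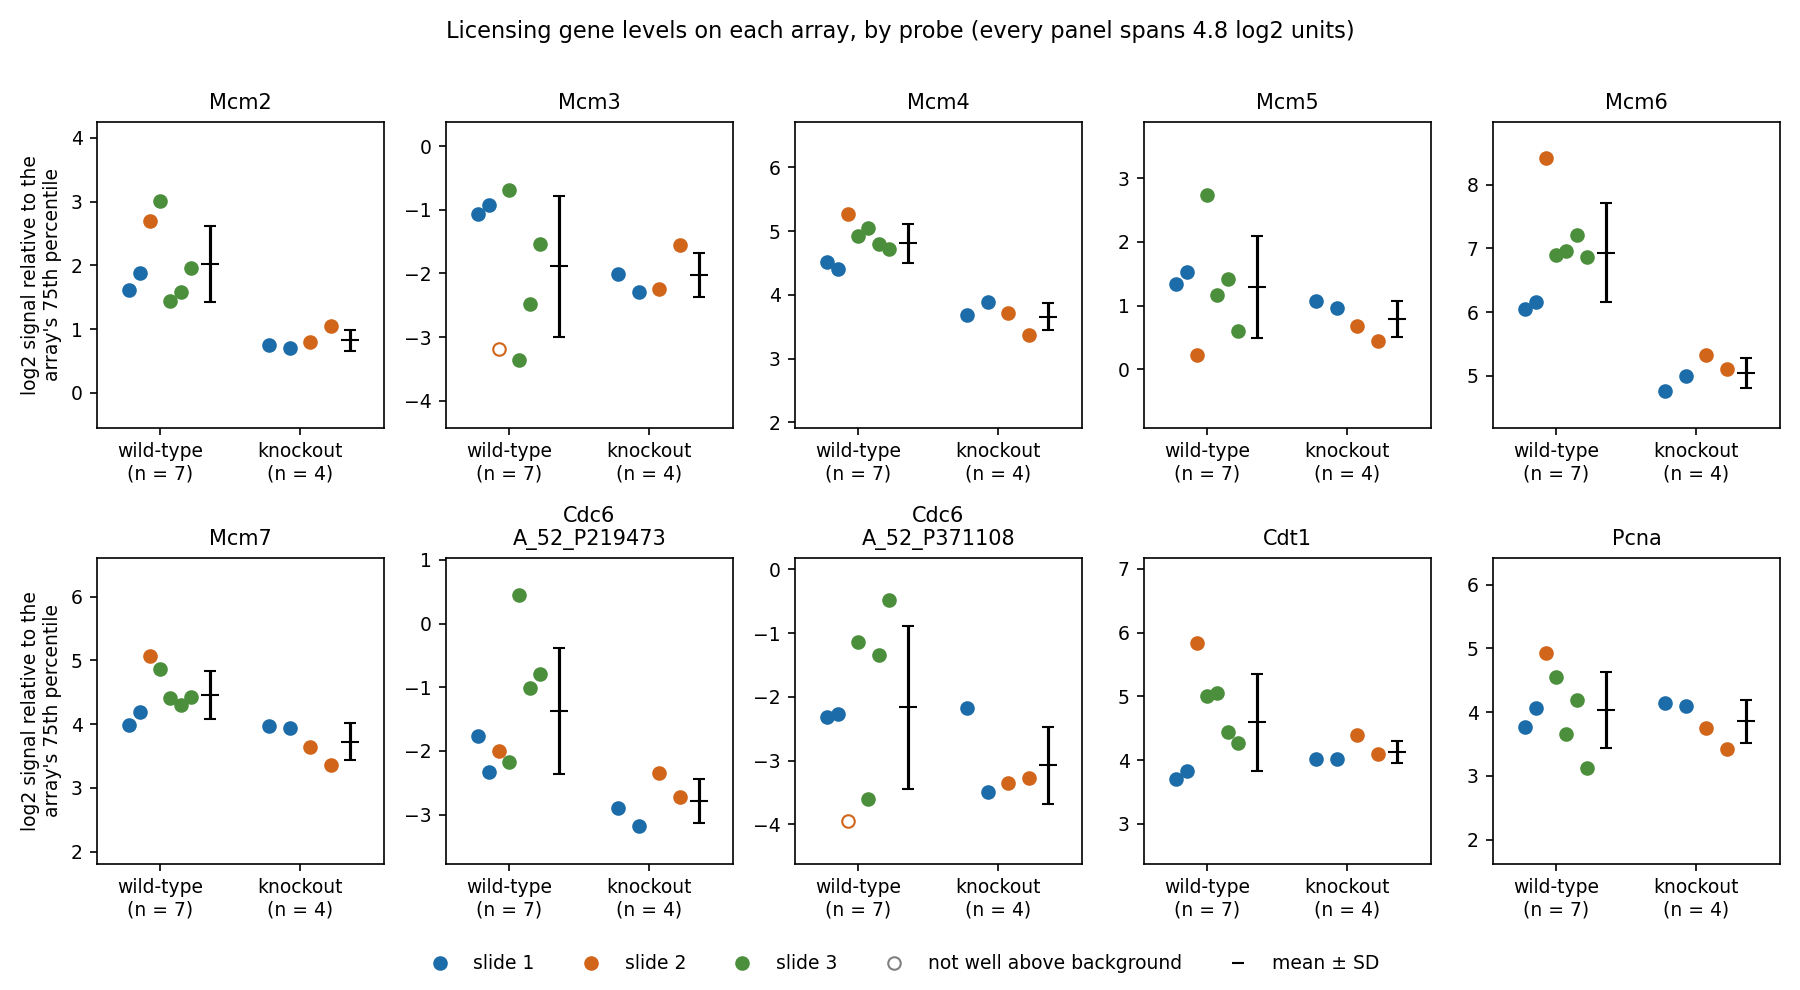
Levels of the 10 licensing gene probes on each array, in log2 signal relative to the array's 75th percentile. Points are arrays coloured by slide, open points were not well above background, and bars are means ± SD of 7 wild-type and 4 knockout arrays. The groups are separate for Mcm2, Mcm4 and Mcm6, touch for Mcm7 and the first Cdc6 probe, and overlap in the other panels.

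Among the loaders, CDC6 is the ATPase that joins the origin recognition complex to receive the MCM ring. Its brighter probe, A_52_P219473, read −1.77, −2.33, −2.00, −2.18, 0.44, −1.01 and −0.79 on wild-type arrays 1 to 7 and −2.90, −3.18, −2.34 and −2.73 on knockout arrays 1 to 4. The lowest wild-type level, −2.33 on array 2, and the highest knockout level, −2.34 on array 3, were nearly equal, and wild-type array 5 stood highest. The fitted difference was −0.81 ± 0.55 (SE; limma adjusted p = 0.452), with −0.99 within slide 1 and −0.54 within slide 2. The second probe, A_52_P371108, read −2.32, −2.27, −3.95, −1.14, −3.61, −1.35 and −0.48 on the wild-type arrays and −2.17, −3.50, −3.36 and −3.27 on the knockout arrays, where the groups overlapped throughout. Its difference was −0.07 ± 0.69, with −0.54 within slide 1 and 0.64 within slide 2, so the probes of Cdc6 disagreed on slide 2, where the wild-type reading of the second probe was not above background.

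CDT1 is the partner of CDC6 that brings the MCM ring to the origin and is the protein that geminin inhibits. Its probe, A_51_P133612, read 3.71, 3.83, 5.84, 5.01, 5.05, 4.44 and 4.27 on wild-type arrays 1 to 7 and 4.01, 4.02, 4.39 and 4.10 on knockout arrays 1 to 4. Both wild-type arrays of slide 1 were the lowest of all 11, and wild-type array 3 was the highest. The difference was −0.49 ± 0.43 (SE; limma adjusted p = 0.563) with opposite signs on the slides, 0.25 within slide 1 and −1.60 within slide 2. Without wild-type array 3 it was 0.25, the slide 1 value, as the design fixes.

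Of the helicase ring, MCM6 is the subunit whose transcript differed most. The Mcm6 probe, A_51_P360492, read 6.04, 6.15, 8.41, 6.89, 6.96, 7.21 and 6.87 on wild-type arrays 1 to 7 and 4.76, 4.99, 5.33 and 5.10 on knockout arrays 1 to 4. Every knockout array lay below every wild-type array, and the highest level was again that of wild-type array 3. The mean was 6.93 ± 0.78 in the wild-type (SD, n = 7) and 5.04 ± 0.24 in the knockout (SD, n = 4). The fitted difference was −2.01 ± 0.42 (SE), with a 95% interval from −2.94 to −1.08, which is 4.04-fold lower, and 2.20% of all genes tested had a lower value. Its limma adjusted p of 0.0657 missed the threshold.

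The Mcm6 difference was −1.22 within slide 1 and −3.20 within slide 2. Slide 2 had a single wild-type array, array 3, from an embryo labelled female, while both knockout embryos of that slide were labelled male, so on slide 2 genotype and sex cannot be told apart. Without that array slide 2 holds no contrast, so the fitted difference was that of slide 1, −1.22, with a limma adjusted p of 0.402. Without wild-type array 4, a slide 3 array that enters only the spread, the adjusted p was 0.0452. Over 31 alternatives the difference ran from −3.20 to −1.22. The limma adjusted p ran from 0.000738, with array weights, to 0.833, with a 2-fold minimum, which tests a different hypothesis. In 8 of the alternatives Mcm6 passed the threshold, so its call depended on the fit. With sex as a further term the difference was −1.70, at an adjusted p of 0.210.

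MCM2 is a subunit that also handles histones at the fork. Its probe, A_51_P158210, read 1.62, 1.87, 2.70, 3.01, 1.43, 1.58 and 1.95 on wild-type arrays 1 to 7 and 0.74, 0.70, 0.80 and 1.05 on knockout arrays 1 to 4. The knockout arrays lay close together and below every wild-type array. The difference was −1.32 ± 0.42 (SE; limma adjusted p = 0.158), with −1.03 within slide 1 and −1.77 within slide 2.

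MCM4 forms with MCM6 and MCM7 the subcomplex in which helicase activity was first found. The Mcm4 probe, A_51_P356762, read 4.51, 4.40, 5.27, 4.92, 5.05, 4.79 and 4.71 on wild-type arrays 1 to 7 and 3.68, 3.88, 3.71 and 3.37 on knockout arrays 1 to 4. The groups did not overlap, and the lowest wild-type level lay above the highest knockout level by more than the SD of the knockout arrays, 0.21. The difference was −1.10 ± 0.33 (SE; limma adjusted p = 0.137), with −0.67 within slide 1, which is also its value without wild-type array 3, and −1.73 within slide 2.

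Mcm7, probe A_51_P165704, encodes the third member of that subcomplex. It read 3.98, 4.20, 5.07, 4.86, 4.41, 4.30 and 4.42 on wild-type arrays 1 to 7 and 3.97, 3.95, 3.63 and 3.36 on knockout arrays 1 to 4. Wild-type array 1 and knockout array 1 lay side by side, so the groups were separated by less than the spread within either. The difference was −0.71 ± 0.37 (SE; limma adjusted p = 0.337), with −0.13 within slide 1 and −1.57 within slide 2, and without wild-type array 3 it was −0.13.

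MCM3 and MCM5 are neighbours in the ring, and MCM5 forms with MCM2 the gate through which DNA enters. The Mcm3 probe, A_52_P364776, read −1.06, −0.92, −3.19, −0.68, −3.35, −2.48 and −1.54 on wild-type arrays 1 to 7 and −2.00, −2.30, −2.25 and −1.55 on knockout arrays 1 to 4. Its wild-type arrays spread widely on both sides of the knockout arrays, and the reading of wild-type array 3 was not above background. The difference was −0.18 ± 0.69 (SE; limma adjusted p = 0.912), −1.16 within slide 1 and 1.29 within slide 2.

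The Mcm5 probe, A_51_P190111, read 1.34, 1.52, 0.23, 2.74, 1.17, 1.42 and 0.61 on wild-type arrays 1 to 7 and 1.08, 0.96, 0.68 and 0.45 on knockout arrays 1 to 4. Wild-type array 3 was the lowest of all arrays for this gene, where it was the highest for Mcm4, Mcm6, Mcm7, Cdt1 and Pcna. The difference was −0.11 ± 0.49 (SE; limma adjusted p = 0.922), −0.41 within slide 1 and 0.33 within slide 2. For Mcm3 the 95% interval ran from −1.73 to 1.37 and for Mcm5 from −1.20 to 0.97, so a 2-fold difference in either direction lies inside the first interval and a 2-fold lower level inside the second.

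PCNA, the sliding clamp, was measured with 10 spots of the same probe, A_51_P396351, on each array. It read 3.76, 4.07, 4.93, 4.55, 3.65, 4.20 and 3.12 on wild-type arrays 1 to 7 and 4.15, 4.10, 3.74 and 3.43 on knockout arrays 1 to 4. The groups overlapped fully, with wild-type array 3 highest and wild-type array 7 lowest. The difference was −0.41 ± 0.45 (SE; limma adjusted p = 0.652), 0.21 within slide 1 and −1.34 within slide 2. Leaving out wild-type array 3 gave 0.21, again the slide 1 value. Between 8 and 10 spots per array were kept, and their SD lay between 0.016 and 0.060, against an SD between arrays of 0.60 in the wild-type and 0.34 in the knockout. The spread between arrays was thus far wider than that between spots.

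**Figure D3:**
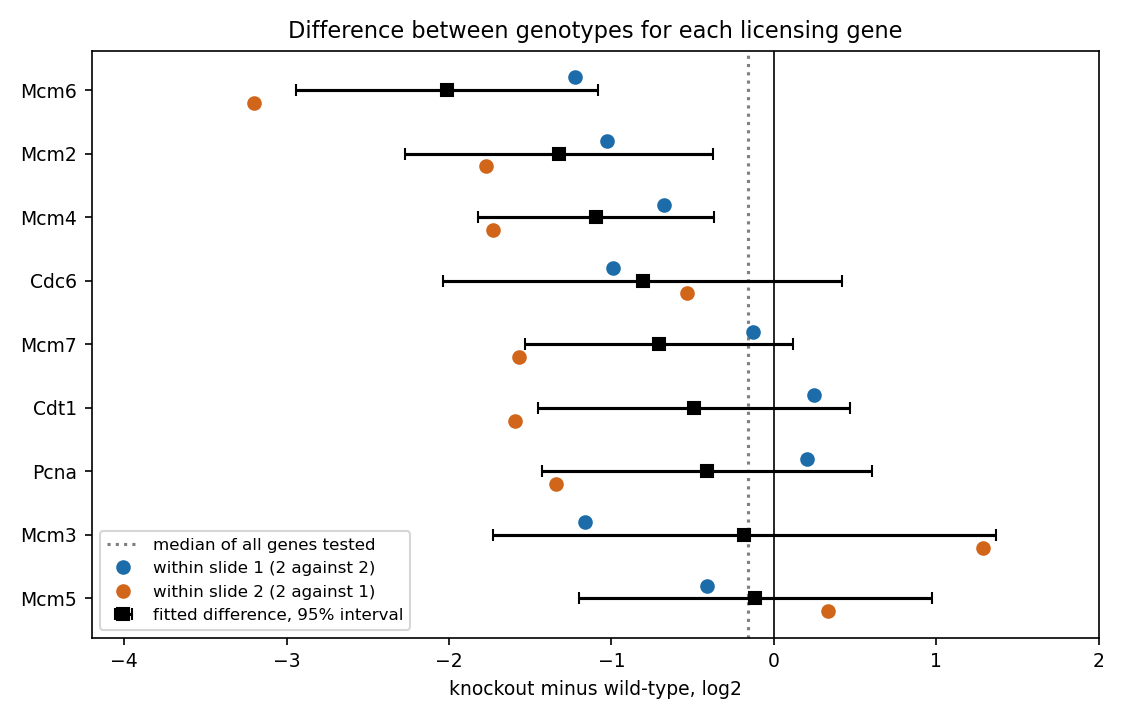
Difference between genotypes for each of the 9 licensing genes, as knockout minus wild-type on the log2 scale. Squares are the fitted differences with 95% intervals, coloured points the differences within slide 1 (2 against 2 arrays) and slide 2 (2 against 1), and the dotted line is the median of all genes tested. The intervals of Mcm6, Mcm4 and Mcm2 lie below 0, and the slides give opposite signs for Cdt1, Pcna, Mcm3 and Mcm5.

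Slide by slide, 7 of 9 genes were lower in the knockout on slide 1 (53.8% of all genes tested) and 7 of 9 on slide 2 (58%), and 5 of 9 on both, Mcm2, Mcm4, Mcm6, Mcm7 and Cdc6 (37.5% of all genes tested). Without overlap between the groups, 7 of 9 were lower on slide 1 (29.5% of all genes tested) and 7 of 9 on slide 2 (49.9%). The median over the 9 was −0.67 on slide 1, against −0.06 over all genes, and −1.57 on slide 2, against −0.33. On slide 2 all genes whose level was 3 or more had a median difference of −0.64, against −0.25 for genes with a level below 0. Mcm4, Mcm6, Mcm7, Cdt1 and Pcna belong to the brighter class, which as a whole was lower in the knockout arrays on slide 2 than the dimmer genes were. With quantile normalization the slide 2 median of the 9 genes was −0.91, and with cyclic loess −1.005.

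Array by array, levels were set against the mean of each gene over all 11 arrays, which include the 4 wild-type arrays of slide 3. After each gene was centred on its mean over the 11 arrays, the mean over the 9 genes was −0.51, −0.55, −0.49 and −0.61 on knockout arrays 1 to 4, with 8, 8, 9 and 8 of the 9 genes below their own mean. On wild-type arrays 1 to 7 it was 0.00, 0.08, 0.57, 0.78, 0.30, 0.26 and 0.17. No share over all genes was computed for these counts. The mean of a gene holds 7 wild-type and 4 knockout arrays, so the counts do not measure differences within slides. The genes counted as below their mean on knockout arrays 1 and 2 included Cdt1, which stood above both wild-type arrays of slide 1. Those on knockout arrays 3 and 4 included Mcm5, which stood above wild-type array 3 of the same slide. Wild-type array 4 was the highest array for Mcm2, Mcm3 and Mcm5, and both wild-type arrays of slide 1 lay close to 0. The SD between arrays was smaller in the knockout than in the wild-type for 9 of 9 genes, where this held for 87.2% of all genes tested; the wild-type arrays came from 3 slides and the knockout arrays from 2.

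**Figure D4:**
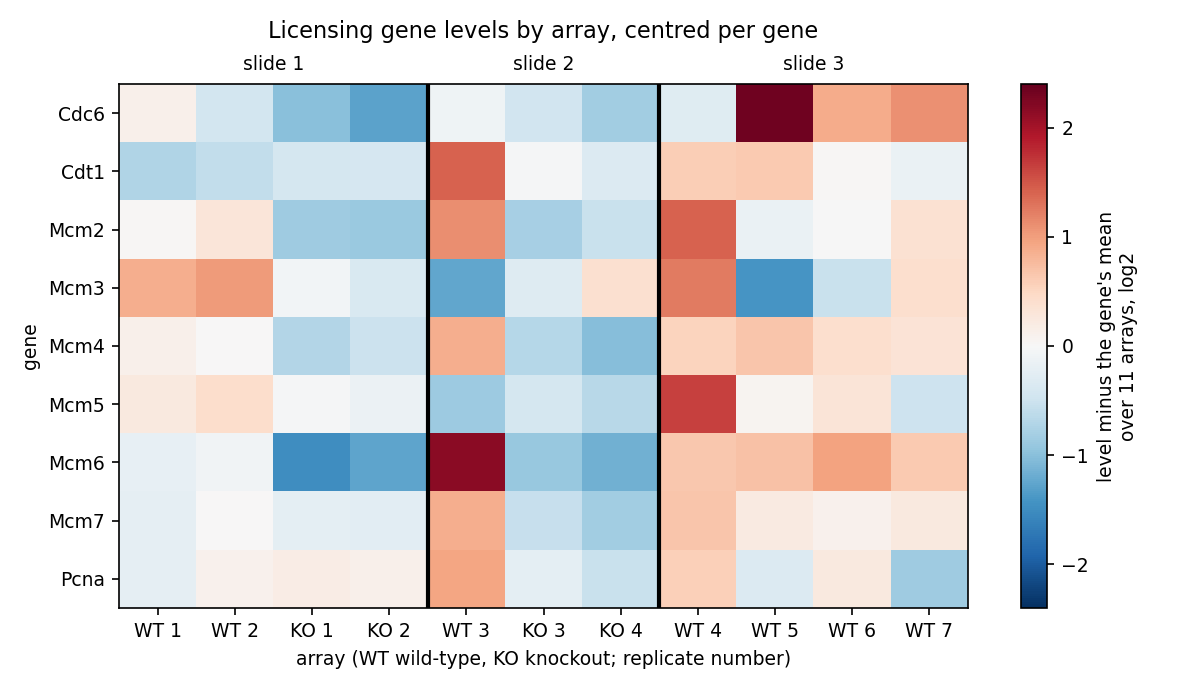
Levels of the 9 licensing genes on each array, as the log2 level minus the mean of the gene over 11 arrays, with arrays grouped by slide. Blue is below and red above the mean. The 4 knockout arrays are below the mean in 8 or 9 of the 9 genes each, a count for which no share over all genes was computed. The mean includes the slide 3 arrays, and within slides some of these genes were not lower in the knockout. Wild-type array 3 is far above the mean for Mcm6 and below it for Mcm3 and Mcm5.

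Markers of macrophages also moved with genotype. Of 16 macrophage markers 15 were on the array, and the log2 of their summed level ran from 5.34 to 7.84 on the wild-type arrays and from 9.33 to 10.13 on the knockout arrays. Of these 15, 14 were higher at an unadjusted p under 0.05 (8.39% of all genes tested). Gpnmb and Spi1, 2 of the 15, passed the adjusted threshold (0.603% of all genes tested, higher). Cd163 went the other way, at −4.06 and an unadjusted limma p of 0.0185. Gpnmb, Spi1 and Itgam were well above background on 2, 0 and 1 wild-type arrays and on 4 knockout arrays each. They reached the 4 detected arrays needed for the test only through the knockout, so their direction was in part fixed by that filter. The summed level of 10 chromaffin markers ran from 6.66 to 10.95 in the wild-type and from 2.49 to 7.21 in the knockout. Hand2 was above background on no array. On slides 1 and 2 the chromaffin sum was 7.55, 8.84 and 8.15 on wild-type arrays 1 to 3. On knockout arrays 1 to 4 it was 6.30, 7.21, 6.85 and 2.49, without overlap. Of 9 chromaffin markers tested, 8 had a fitted difference below 0 (57% of all genes tested), with a median of −0.94. The summed adrenocortical markers, 8 on the array with Star included, ran from 6.97 to 10.6 and from 7.14 to 8.91, and the erythroid markers from 9.77 to 12.1 and from 9.23 to 10.7. Wild-type arrays 5, 6 and 7 had the lowest adrenocortical sums of the wild-type group, 7.27, 6.97 and 8.04. Their chromaffin sums, 10.95, 10.81 and 10.54, were its highest. These slide 3 arrays add only to the spread of the fit, but they enter the comparisons over all 11 arrays. On slides 1 and 2 alone, which set the fitted differences, the adrenocortical sum was 9.13, 10.09 and 10.62 on wild-type arrays 1 to 3 and 8.03, 8.91, 7.14 and 8.57 on knockout arrays 1 to 4, without overlap. With Star included, 8 of 8 fitted differences were below 0, against 57% of all genes tested, with a median of −1.18. The median was −1.54 within slide 1 but −0.18 within slide 2, and 5 of 8 were lower on both slides (37.5% of all genes tested). On slide 2 Cyp11a1, Nr5a1 and Scarb1 were not lower in the knockout, at 1.27, 0.11 and 0.007. The sum adds unlogged levels, so the brightest markers weigh most, such as Hsd3b1 and Fdx1 on wild-type array 3, at 9.12 and 9.50. On slides 1 and 2 the capsule and stromal sum was 9.25, 8.48 and 8.97 against 9.83, 9.82, 10.69 and 9.45, with a median difference of 1.12 over 9 genes, and the Schwann precursor sum was 3.27, 2.22 and 3.24 against 4.08, 3.97, 4.14 and 4.27, with a median of 1.31 over 4 genes tested. Over all 11 arrays both overlapped, at 8.36 to 11.1 in the wild-type and 9.45 to 10.7 in the knockout for stromal markers and 1.78 to 5.60 and 3.97 to 4.27 for Schwann precursor markers. The endothelial sum overlapped between the groups, at 4.76 to 7.96 and 4.71 to 6.07. The part of these markers in the licensing gene differences was not tested.

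Origin recognition genes and their partners were the nearest neighbours of the licensing genes in function. Of 10 genes of origin recognition and loading, all tested, 0 passed the threshold, 2 were lower and 0 higher at an unadjusted p under 0.05, and the median difference was −0.48. Of all genes tested, 10.1% were lower and 8.39% higher at that level. A fitted difference below 0 held for 57% of them, and 3.22% were lower in the knockout without overlap over the 11 arrays. The same shares apply to the lists that follow. In the origin list 9 of 10 fitted differences were below 0, and they ran from −1.64 to 0.50. Gmnn, which encodes geminin, the inhibitor of CDT1, ran from 4.67 to 6.59 in the wild-type (median 5.74) and from 3.56 to 4.15 in the knockout, with no overlap. Its difference was −1.64 ± 0.45 (limma adjusted p = 0.121), −0.78 within slide 1 and −2.92 within slide 2. Mcm8, a relative of the ring subunits that acts in recombination, had a difference of −1.64 (0.160), and Orc2, a subunit of the origin recognition complex, one of −0.69 (0.326), the number in brackets being the limma adjusted p here and in the paragraphs on the other lists. Without wild-type array 3, Gmnn was at −0.78, Mcm8 at −0.84, Orc2 at −0.19 and the median of the list at −0.20.

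The 14 genes that fire the helicase, all tested, had 0 past the threshold. At an unadjusted p under 0.05, 5 were lower (10.1% of all genes tested) and 0 higher (8.39%). The median was −0.56, with values from −1.42 to 0.88, and 9 of 14 were below 0 (57% of all genes tested). Cdc7, the kinase that phosphorylates the MCM ring, had a difference of −1.29 (0.127), and its levels of 0.22 to 1.65 in the wild-type and −0.25 to 0.17 in the knockout did not overlap. Topbp1, a scaffold of origin firing and checkpoint signalling, had one of −1.34 (0.137), also without overlap, and Tipin, a fork protection protein, one of −1.29 (0.220), with overlap. Without wild-type array 3, Topbp1 was at −0.79 and Tipin at −0.36. The median of the list was −0.23 without knockout array 1, and leaving out wild-type array 1 or 3 gave −0.38 or −0.42.

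Of 26 polymerase, clamp loader and fork genes, all tested, 0 passed. At an unadjusted p under 0.05, 8 were lower (10.1% of all genes tested) and 0 higher (8.39%). The median was −0.37, with values from −2.00 to 0.91, and 19 of 26 were below 0 (57% of all genes tested). Pole, the catalytic subunit of the leading strand polymerase, had a difference of −1.61 ± 0.39 (0.0913), with levels of 2.04 to 3.39 in the wild-type and 0.36 to 1.38 in the knockout. Rfc4, a subunit of the loader that places PCNA on DNA, had one of −2.00 ± 0.51 (0.101), −0.998 within slide 1, which is also its value without wild-type array 3, and −3.50 within slide 2. Chaf1b, a histone chaperone subunit that binds behind the fork, had one of −0.84 (0.197).

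The 7 genes of nucleotide supply, all tested, had 0 past the threshold and 5 lower at an unadjusted p under 0.05 (10.1% of all genes tested). All 7 fitted values were below 0 (57% of all genes tested), with a median of −1.02. Rrm2, the regulated subunit of ribonucleotide reductase, ran from 0.62 to 2.81 in the wild-type and from −0.59 to −0.09 in the knockout, with a difference of −2.01 ± 0.52 (0.106), −1.14 within slide 1 and −3.32 within slide 2. Dut, which removes dUTP, had one of −1.35 (0.159), and Tk1, thymidine kinase, one of −0.98 (0.186) with −1.03 within slide 1 and −0.90 within slide 2. Without wild-type array 3, Rrm2 was at −1.14, Dut at −0.52 and the median of the list at −0.51.

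Of 28 S-phase cyclin and E2F genes 27 were on the array and 25 were tested, with 0 past the threshold. At an unadjusted p under 0.05, 6 were lower (10.1% of all genes tested) and 1 higher (8.39%). The median was −0.41, with values from −1.70 to 2.15, and 16 of 25 were below 0 (57% of all genes tested). Cdkn1c, a cyclin-dependent kinase inhibitor, had a difference of −1.40 ± 0.36 (0.103), with levels of 7.05 to 8.51 in the wild-type and 5.64 to 6.85 in the knockout. E2f6, a repressive E2F, had one of −1.06 (0.127). Cdkn1a, which encodes the inhibitor p21, was the 1 gene higher at that level, with 1.91 ± 0.63 (0.165), 1.23 within slide 1 and 2.92 within slide 2, and its groups overlapped. Without wild-type array 3 it was 1.23, and without knockout array 1 the median of the list was −0.63.

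The 8 mitotic genes, all tested, had 0 past the threshold. At an unadjusted p under 0.05, 5 were lower (10.1% of all genes tested) and 0 higher (8.39%). Their median, −1.44, was the lowest of the lists, with values from −2.04 to 0.45, and 7 of 8 were below 0 (57% of all genes tested). Top2a, the topoisomerase that untangles sister chromatids, had a difference of −2.04 ± 0.50 (0.0957), Aurkb, a kinase of chromosome segregation, one of −1.79 (0.135), and Birc5, its partner survivin, one of −1.35 (0.139). Without wild-type array 3, Top2a was at −1.24, Aurkb at −0.71 and Birc5 at −0.82, and the median was −0.74 for the mitotic genes and −0.67 for the licensing genes, against −0.06 for all genes tested.

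**Figure D5:**
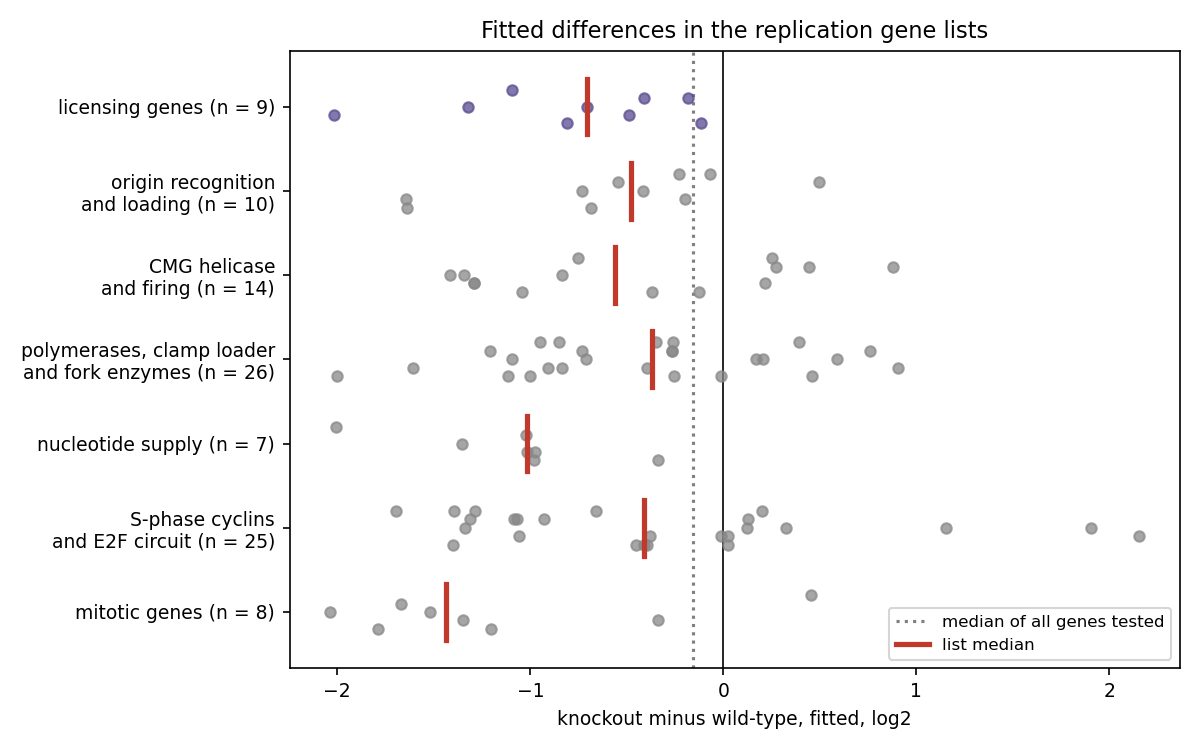
Fitted knockout minus wild-type difference of every tested gene in the licensing group and the other replication lists, on the log2 scale. Points are genes, red bars are list medians and the dotted line is the median of all genes tested. All 7 medians lie below that line, between −1.44 and −0.37, and no gene shown passed the adjusted threshold.

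The genes whose pattern over the 11 arrays was most like that of the licensing genes were found by correlation with the mean of their standardised levels, after the mean of each slide was removed. The closest were Sra1, a coactivator RNA gene (r = 0.988), Haus4, a subunit of the augmin complex of the spindle (0.982), Nme3, a nucleoside diphosphate kinase (0.982), and Ak3, a mitochondrial adenylate kinase (0.979). Next came the calcium channel subunit Cacna2d2 (0.979), the mitochondrial import gene Timm22 (0.977), Rrm2 (0.977) and Cmc2 (0.977). Over 13765 genes compared the median was 0.10 and the 95th percentile 0.87. Without removal of slide means the 8 values ran from 0.613 for Cacna2d2 to 0.956 for Sra1. Within the group itself, the correlation with this mean was 0.929 for Mcm2, 0.922 for Mcm7, 0.889 for Mcm4 and 0.864 for Mcm6. It was 0.784 for Pcna, 0.774 for Cdt1 and 0.416 for Mcm5, and only 0.059 for Mcm3 and 0.043 for Cdc6. Each of these genes is part of the mean, which raises its value, so the values are not comparable with those of the 8 genes above. All arrays share the same slides and amplification, and these values are a description without a test.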

How the data were processed

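The deposited scanner files give spot intensity as written by Agilent Feature Extraction, whose processed signal is already background-subtracted, per the file headers. They name version 10.1.1.1 for slides 1 and 2 and 10.5.1.1 for slide 3; the submitters' processing notes name 10.5.1.1. The deposited flags mark other features of a spot, of which those for outliers, saturation and signal well above background were used. The authors' log2 values, in the deposited series table, matched the scaled signals centred per probe within 0.01 for at least 99.8% of probes, and served as an alternative. Its column medians ran from −0.166 to 0.901. Slide numbers came from the array identity in the file headers.

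After outlier spots were dropped, log2 processed signals were averaged over the spots of a probe and the 75th percentile of the array subtracted. Probes were named by RefSeq accession through a table of GRCm38.p6. The brightest probe stood for a gene, and entered the test where 4 or more of the 11 arrays had it well above background. limma 3.58.1 in R 4.3.3 fitted genotype and slide (lmFit and eBayes, 7 residual degrees of freedom, two-sided). The number of arrays limits the precision. Each array held RNA of a separate mouse, per the labels.

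Named genes were the 10 members, Star, the 3 genes of each other replication list with the smallest p, and the 8 genes most like the members. Adrenal and other cell type markers and Gins1 are named besides. The members and all lists were chosen with earlier results of these data known, so no count here is independent support. The fit was tested on simulated data. Alternatives covered the slide term, sex, the replicate number, background, scaling, filters, probe choice, the series table, array weights, the variance prior, a 2-fold minimum, outlier spots and each array left out; cyclic loess was chosen after seeing the data. The normexp correction, offset 50, used median spot signals. statmod 1.5.0, version 1.17.8 of data.table, pandas 2.3.3, numpy 2.4.6 and matplotlib 3.10.9 in Python 3.11.15 were also used.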

Additional observations from a re-analysis of the deposited data

How the results depend on the processing

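Every fitted difference rests on 3 wild-type and 4 knockout arrays of 2 slides; on slide 1 all arrays were labelled male, and on slide 2 sex and genotype coincide. The count of genes past the threshold, 173, was 594 with no slide term, 469 with slide as random, 28 with sex as a further term, 627 with normexp, 92 with median scaling, 403 when 11 detected arrays were required, 5973 with array weights and 22 with a minimum fold of 2. Within slide 1 and within slide 2 alone limma called 0 genes, where 3857 and 7488 had an unadjusted p under 0.05. With an array left out the count ran from 10 (without wild-type array 3) to 565 (without wild-type array 4). Leaving out wild-type array 1 or 2 gave 24 or 35; it was 106 without wild-type array 7, and 20, 52, 31 and 29 without knockout arrays 1 to 4. Of the licensing genes, 0 passed in the reported fit and 1, Mcm6, passed without the slide block, with the random block, with normexp, with quantile normalization, with 11 detected arrays required and with a trended robust variance prior; with an array left out the count ran from 0 to 1. With array weights 5 passed, Mcm2, Mcm3, Mcm4, Mcm6 and Cdc6, in a fit that gave knockout array 1 a weight of 58.6 and wild-type array 3 one of 0.124, so it rests largely on 1 array. The median difference of the licensing genes, −0.71, was −1.57 within slide 2 and otherwise ran from −0.83 to −0.49. The count of genes with separate groups, 5, was 1 with normexp (1.8% of all genes tested) and 3 each with median scaling (5.59%), quantile normalization (3.34%) and cyclic loess (3.2%), against 3.22% in the reported fit. It was 4 with the mean of a gene's probes (2.71%) and 4 with the percentile taken over probes detected on all arrays (2.47%). With any array left out it was 5, but there it could not fall, since dropping an array cannot close a gap between groups. Of the named genes, signs turned for Cdt1, Pcna, Mcm3 and Mcm5. Cdt1 was 0.25 within slide 1 and 0.17 with array weights; Pcna was 0.21 within slide 1, 0.066 with sex and 0.13 with array weights; Mcm3 was 1.29 within slide 2; Mcm5 was 0.33 within slide 2, 0.087 with sex, 0.014 with the percentile taken over probes detected on all arrays. With an array left out, Cdt1 ran from −0.70 to 0.25 and Pcna from −0.64 to 0.21. Both were positive without wild-type array 3, where the fitted difference is that of slide 1. Mcm3 ran from −1.16 to 0.14 (positive without wild-type array 1 or 2 or knockout array 2). Mcm5 ran from −0.41 to 0.0064 (positive without wild-type array 2). The cause of these changes was not tested. Whether the replicate numbers pair the samples is not known here, and the reported fit did not use them. Deviations of same-numbered arrays from their group means correlated at 0.18, 0.22, −0.0077 and 0.18, and 1 of 4 knockout arrays correlated best with its own number. Slide was not removed from these values and the arrays numbered 4 lie on different slides, so they cannot decide the question. With the replicate block in place of slide 177 genes and 0 licensing genes passed.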
